A study of Mus musculus with 6 samples.

Results

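Whole corneas taken 15 days after an alkali burn were compared with uninjured corneas (day 0) across every row of the deposited expression table that carries a gene symbol. Those were 23889 of 28539 rows, and 13237 of them reached an FPKM of at least 1 in either group and are called tested below. FPKM gives the sequenced fragments of a gene relative to the length of its transcript and to all fragments of the library. The study sequenced poly(A)-selected RNA of 6 samples in 3 groups, uninjured corneas and corneas at days 5 and 15, with 2 samples per group. All groups were corneas of female C57BL/6J mice aged 6 to 8 weeks. The uninjured group had no burn, and the day 15 group belongs, per the labels, to the stage at which vessel growth regresses. The labels do not name the alkali, nor say if a group's samples are from different mice. The table holds 1 pooled FPKM per group, with the authors' interval and a status, and has 0 columns of separate samples. No spread between samples, no test and no p-value could therefore be had, and the read depth is unknown.

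The cornea is a transparent tissue of a stratified epithelium, a collagen stroma with keratocytes, and an inner endothelial layer that pumps water out of the stroma. It normally holds no blood vessels. An alkali burn destroys epithelium and limbus, the rim where corneal stem cells lie, and is known to be followed by entry of leukocytes and vessels, by scarring, and by growth of conjunctiva-like epithelium over the corneal surface.

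A row is called apart below if 4 things hold: a usable status in both groups, an FPKM of 1 or more in the higher group, a log2 ratio of (FPKM + 1) of 1 or more in size, and no overlap between the authors' intervals. The log2 ratios given are on that scale, on which low genes differ by less than in their FPKM. A fold divides the bare FPKM of the groups and is given only where both reached 1. Ranges in parentheses are the authors' intervals, whose median half-width was 53.6% of the FPKM at day 0 and 51.8% at day 15 among rows of at least 5 FPKM.

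At day 15, 431 of the tested rows were apart and higher, which is 3.26% of them, and 237 were apart and lower, which is 1.79%. Together they made up 5.05%, the background against which the counts of gene lists below are read. The lists and their members were chosen with earlier results of these data known. A count above that share can therefore reflect the choice of members, and it is given as description only. The median log2 ratio of all tested rows was -0.06. Of these rows, 5986 had a higher value at day 15, which is 45.2%, and 7251 had a lower one. Counts of list members with a higher or lower value are read against these. Among the rows apart and higher, 154 stood under 1 FPKM at day 0 and 19 were listed at 0 there. Of the rows apart and lower, 84 stood under 1 FPKM at day 15 and 11 were listed at 0. A further 671 rows were past 2-fold higher and 674 past 2-fold lower with intervals that overlapped. In whole tissue, fewer cells of a type and less RNA per cell cannot be told apart, which holds for every value below.

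**Figure D1:**
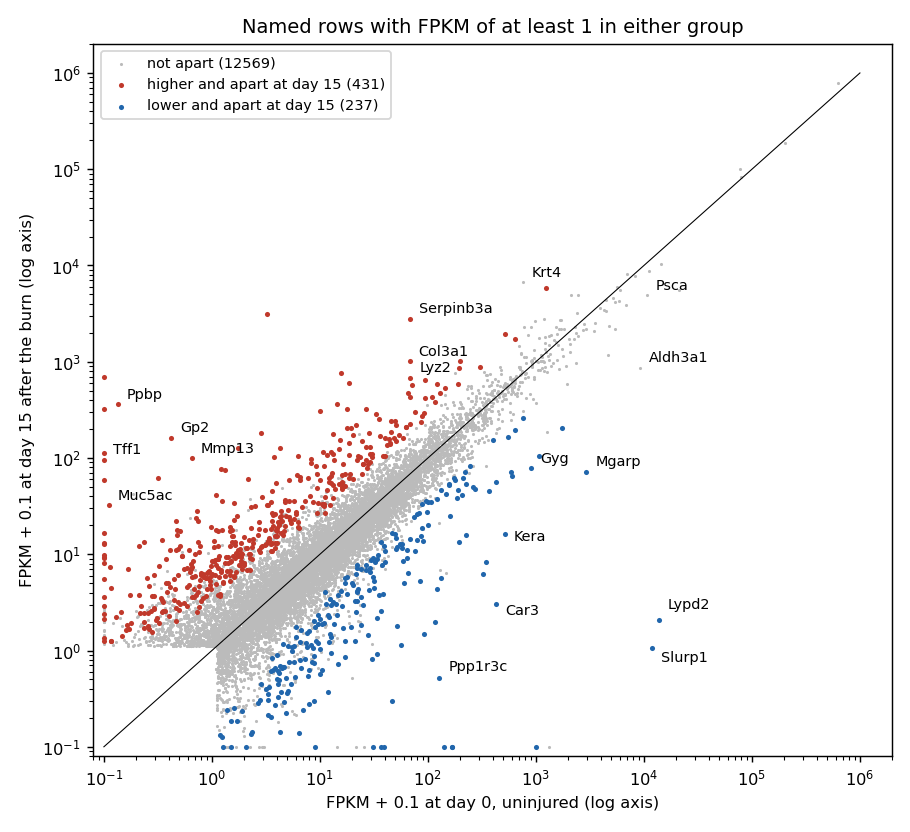
FPKM + 0.1 at day 15 (vertical, log axis) against day 0 (horizontal, log axis), with 1 point per named row that reached an FPKM of at least 1 in either group and the line of equal values. Red points are the 431 rows apart and higher and blue points the 237 apart and lower; Slurp1 and Lypd2 lie farthest below the line, while Ppbp, Gp2 and Tff1 lie near the left edge, since they were near or at 0 in uninjured cornea.

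The tissue label was checked against defining genes. Krt12, the keratin that defines corneal epithelium, carried a status of too many fragments at day 0, where its listed FPKM of 0 holds no information. It stood at 9.67 at day 15. Aldh3a1, the crystallin-like aldehyde dehydrogenase of corneal epithelium, stood at 9149.9 (998 to 17302) at day 0 and 866 (437 to 1294) at day 15. Kera, the keratan sulfate proteoglycan of keratocytes, stood at 516 (276 to 755) at day 0 and 16.2 (7.35 to 24.96) at day 15. The transcription factor gene of eye surface identity, Pax6, was at 128 and 108, on a locus 15.8 times its annotated span. Both corneal layers were thus present in uninjured tissue by these genes, and Pax6 showed little difference.

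The 3 loci below, which host microRNAs known from corneal and lens epithelium, had lower values at day 15, and the mature sequences are shown because each has a seed of its own. They were chosen after their values were seen. A poly(A) library reads the host transcript and not the mature microRNA. The sequences are those of RefSeq on GRCm38.p6, 5′ to 3′, with the seed (bases 2 to 8) in capitals.
miR-184-3p: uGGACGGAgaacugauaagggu
miR-205-5p: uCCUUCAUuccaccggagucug
miR-204-5p: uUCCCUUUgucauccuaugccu
The Mir184 locus (chromosome 9, 89769856 to 89802972 on mm10) stood at 21.2 (8.31 to 34.05) at day 0 and 1.16 (0.15 to 2.17) at day 15, 18.3-fold lower. The symbol has 2 rows, and the one with the higher day 0 value is given, a choice that favours a lower value at day 15. The 2 neighbouring rows that were apart were lower too. Rasgrf1, an exchange factor for Ras, stood at 116 (46.8 to 185) at day 0 and 1.901 (0 to 4.34) at day 15, and Ankrd34c, an ankyrin repeat gene, at 9.82 (3.698 to 15.95) at day 0 and 0.935 (0 to 1.94) at day 15. The Mir205 locus (chromosome 1, 193506565 to 193510214) stood at 59.2 (27.6 to 90.7) at day 0 and 8.37 (1.75 to 15) at day 15, and its intervals did not overlap. Mir204 lies inside Trpm3, a cation channel gene with a locus of 851 kb that the table gives to both symbols. Trpm3 stood at 129 (11.3 to 247) at day 0 and 6.76 (0 to 13.95) at day 15 and Mir204 at 8.11 (0 to 18.3) at day 0 and 0.72 (0 to 2.71) at day 15, and neither was apart because the intervals overlapped. Of 939 rows named for a microRNA only 30 were tested, of which 2 were apart and higher and 5 apart and lower.

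The 30 largest differences on the lower side held genes of several kinds. Aqp5, the water channel of corneal epithelium, stood at 1062 (338 to 1786) at day 0 and 104 (55.98 to 152) at day 15, a 10.2-fold lower value. Dapl1, a gene of differentiating epithelia, stood at 1760.4 (947 to 2574) at day 0 and 205 (119 to 289.8) at day 15, 8.61-fold lower. Ptgr1, which reduces prostaglandins and reactive aldehydes, stood at 598 (320 to 877) at day 0 and 64.8 (35.2 to 94.5) at day 15. The intervals of all 3 were well separated, with nearest bounds 2.23-fold, 3.27-fold and 3.38-fold apart. Erich5 stood at 224 at day 0 and 15.6 at day 15, and Lce3a, a late cornified envelope gene, at 85.02 at day 0 and 5.23 at day 15. Spon2, a secreted matrix protein, stood at 51.5 (27.7 to 75.4) at day 0 and 1.69 (0.133 to 3.25) at day 15, and Lsamp, an adhesion molecule of the immunoglobulin family, at 59.9 (25.8 to 93.9) at day 0 and 4.903 (1.38 to 8.43) at day 15. Transporters of the uninjured cornea were in the same set. Slc16a12, a transporter of monocarboxylates and creatine, stood at 30.4 (16.7 to 44.1) at day 0 and 0.721 (0.0599 to 1.38) at day 15. Slc14a1, a urea channel, stood at 23.8 (11.7 to 35.99) at day 0 and 1.74 (0.161 to 3.31) at day 15, and the scaffold gene Homer2 at 14.6 (7.56 to 21.6) at day 0 and 0.625 (0.135 to 1.12) at day 15.

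On the other side, Sptssb, a subunit of the enzyme that starts sphingolipid synthesis, stood at 18.5 (7.905 to 29.1) at day 0 and 599.6 (326 to 873) at day 15, a 32.4-fold higher value. Akr1c18, an aldo-keto reductase that inactivates progesterone, stood at 17.7 (10.1 to 25.2) at day 0 and 325 (182 to 467) at day 15, 18.4-fold higher. Both had values in uninjured cornea well above 1, so their folds do not rest on a value near 0. Lrrc15, a membrane protein of activated fibroblasts, stood at 0.135 (0 to 0.322) at day 0 and 13.4 (6.46 to 20.3) at day 15. Clec2f, a C-type lectin gene, stood at 0.406 (0 to 0.93) at day 0 and 17.4 (1.45 to 33.4) at day 15, and Sprr2f, a cornified envelope precursor, at 0.36 (0 to 0.924) at day 0 and 22.02 (4.86 to 39.2) at day 15. These 3 were below 1 in uninjured cornea and get no fold. Wfdc17, a small secreted protein of the whey acidic protein family, stood at 6.21 (0 to 15.5) at day 0 and 106 (41.95 to 169.9) at day 15. Reg3g, a secreted lectin active against bacteria, was listed at 0 at day 0 and reached 12.5 (4.53 to 20.5) at day 15.

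**Figure D2:**
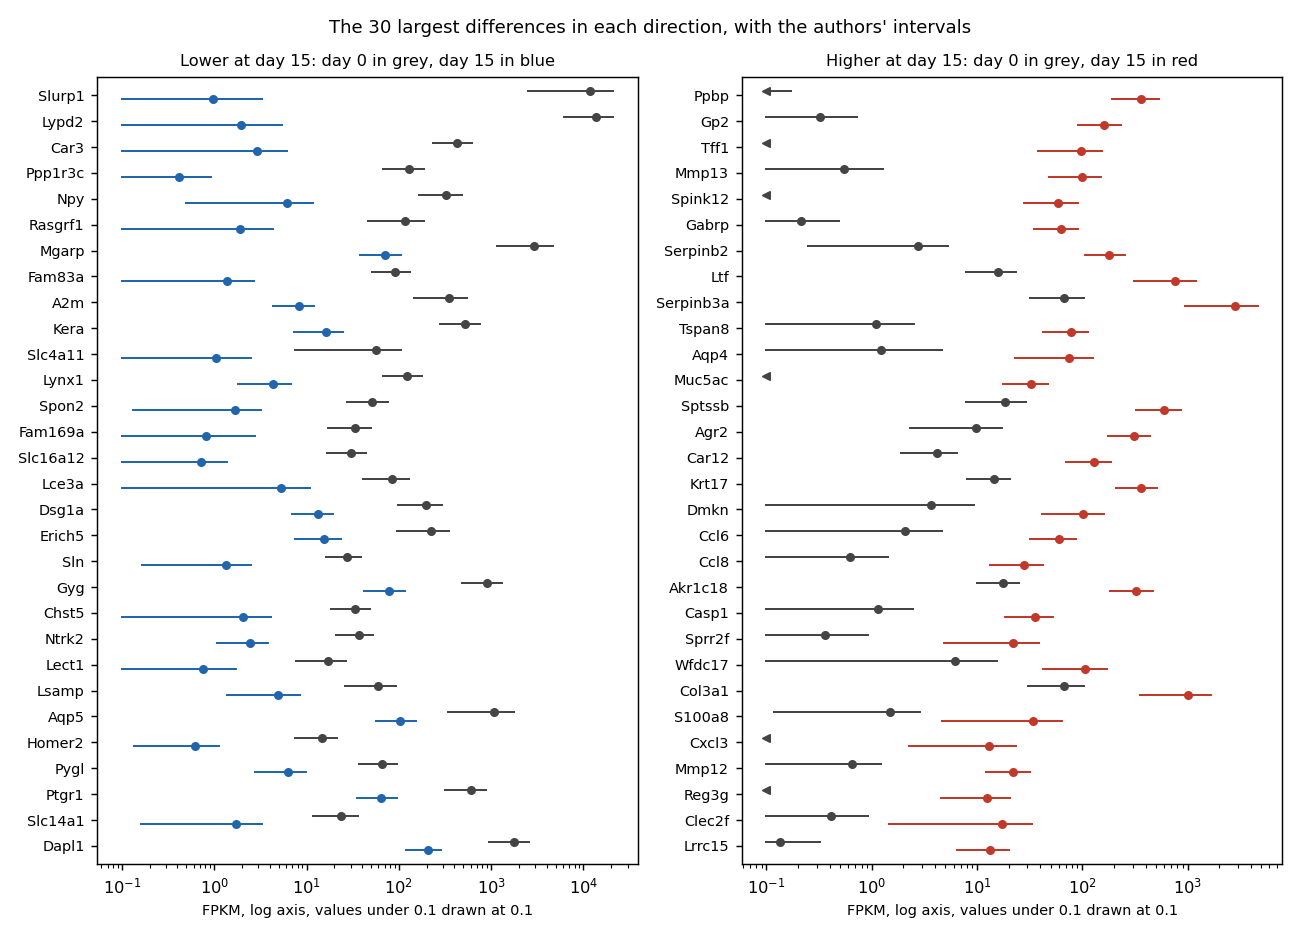
FPKM (horizontal, log axis) of the 30 genes with the largest lower values at day 15 (left) and the 30 with the largest higher values (right), among rows apart that reached an FPKM of 10. Dots are pooled values, bars the authors' intervals, grey marks day 0 and coloured marks day 15; the grey and coloured bars of each gene do not overlap, and grey arrows at the left edge of the right panel mark day 0 values under 0.1.

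Among corneal epithelial genes, 6 of 18 tested members were apart and lower and 1 was apart and higher, with a median log2 ratio of -1.30. The summed FPKM of the list was 51621 at day 0 and 8908 at day 15. Dsg1a, a desmosomal cadherin of upper epithelial layers, stood at 195 (98.9 to 291) at day 0 and 13.2 (7.04 to 19.4) at day 15, and Cldn10, a tight junction claudin, at 63.9 (32.1 to 95.8) at day 0 and 9.07 (1.36 to 16.8) at day 15. The member apart and higher was Clu, a secreted chaperone, at 129 (71.6 to 186) at day 0 and 477 (250.3 to 704) at day 15. The factors Ehf and Elf3, which act in epithelial differentiation, stood at 394 and 468 and at 281 and 387, and Perp, a desmosome protein, at 969.6 and 1092. Klf4, another differentiation factor, stood at 73.1 and 31.8, and the surface protease Tmprss11d at 163 and 73, and neither was apart. The members thus ranged from far lower values to values near those of uninjured cornea. Members named here and below without being apart were chosen after their values were seen.

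Limbal and basal epithelial genes showed no common shift, with 4 of 17 members apart and higher, none apart and lower (list median 0.03). Krt19, a keratin of limbal and simple epithelia, was 4.46-fold higher, at 194 (113 to 275) at day 0 and 866 (451 to 1279.9) at day 15. Cdh3, the cadherin of basal layers, was 4.47-fold higher, at 3.24 (1.27 to 5.22) at day 0 and 14.5 (7.83 to 21.2) at day 15. Lgals7, a galectin of stratified epithelia, stood at 68.03 (22.8 to 113) at day 0 and 425 (227 to 624) at day 15, and Ifitm3, an antiviral membrane protein also used as a limbal marker, at 121 (51.2 to 191) at day 0 and 592 (331 to 852) at day 15. Basal keratins gave a mixed picture. Krt14 stood at 179.6 (92.4 to 267) and 759.9 (205 to 1315), Krt15 at 2435 (497 to 4372) and 4877 (0 to 10072) and Krt5 at 1199 (0 to 2445) and 796 (95.2 to 1498), and none was apart. Trp63, the transcription factor of basal epithelial cells, stood at 118 and 101.

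Of 12 tested genes of the cornified envelope and wound keratins, 4 were apart and higher and 1 apart and lower (list median 0.89). Krt17, induced in wounded skin and present in glands, was 25.03-fold higher, at 14.4 (8.101 to 20.7) at day 0 and 359.9 (209 to 511) at day 15. The related Krt16 was 6.01-fold higher, at 2.98 (0.39 to 5.57) at day 0 and 17.9 (9.79 to 26.01) at day 15. Dmkn, a secreted protein of skin, stood at 3.68 (0 to 9.397) at day 0 and 101 (41.5 to 161) at day 15, and Sprr1a, a cross-linked envelope precursor, at 8.14 (1.13 to 15.2) at day 0 and 89.3 (49.3 to 129) at day 15. Cdsn, the adhesion protein of the outermost cells, was the member apart and lower, at 2.696 (0.896 to 4.497) at day 0 and 0.207 (0 to 0.443) at day 15. Krt1 and Krt10, the keratins that mark skin-type keratinisation, stood at 0.499 and 0.957 and at 24.8 and 9.84, and Lor, the main envelope protein of skin, was listed at 0 in both groups. The most abundant wound keratins, Krt6a and Krt6b, share a merged row outside these counts, which stood at 1812 and 2176 and was not apart. Krt16 and Krt17 were thus higher, whereas the row of Krt6a and Krt6b was not apart. Desmosome and tight junction genes had 1 of 27 members apart, Dsg1a (list median -0.10). Cldn4, the most abundant claudin of the list, stood at 1314 and 1492, and Dsp, the desmoplakin gene, at 343 and 255.

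Genes of conjunctiva and goblet cells were higher as a list, with 13 of 21 members apart and higher, none apart and lower (list median 2.14). The summed FPKM was 1664 at day 0 and 10417 at day 15. Most of both sums came from the keratins Krt4, at 757 and 6734, and Krt13, neither of which was apart. Among the less abundant members, Spdef, the transcription factor of goblet cell differentiation, stood at 0.344 (0 to 0.811) at day 0 and 5.43 (1.57 to 9.29) at day 15. Foxa1, a pioneer factor of glandular epithelia, stood at 0.134 (0 to 0.357) at day 0 and 2.37 (0.414 to 4.32) at day 15, and Muc5b, a gel-forming mucin, at 0.0154 (0 to 0.0369) at day 0 and 4.41 (2.397 to 6.42) at day 15. Ern2, the stress sensor of mucus-secreting cells, was listed at 0 at day 0 and reached 2.28 (0.565 to 3.99). Pigr, which carries immunoglobulin A across epithelia, was 3.78-fold higher, at 3.39 (1.36 to 5.43) at day 0 and 12.8 (6.76 to 18.9) at day 15. Krt7 was 8.17-fold higher, at 70.8 (38.8 to 103) at day 0 and 579 (273 to 884) at day 15, and Qsox1, a secreted oxidase of disulfides, 4.53-fold higher, at 28.9 (15.3 to 42.5) at day 0 and 131 (71.7 to 190.4) at day 15. Not every goblet gene had a value. Muc2, the intestinal gel mucin, stood at 0.0134 and 0.0154, and the trefoil factor Tff3 was listed at 0 in both groups. Krt13, the keratin of conjunctival surface layers, stood at 769 (361 to 1176) and 2271 (527 to 4016) and was not apart.

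Membrane mucins and the enzymes that glycosylate them had 5 of 15 members apart and higher, 1 apart and lower (list median 0.56). Muc1, the transmembrane mucin that coats wet epithelia, stood at 10.9 (5.37 to 16.4) at day 0 and 81.8 (46.5 to 117) at day 15, a 7.53-fold higher value, on a symbol with several rows. Muc4, the more abundant membrane mucin in uninjured cornea, stood at 69.5 and 76.98. B3gnt3, which extends core 1 O-glycans, was 5.32-fold higher, at 3.43 (1.79 to 5.08) at day 0 and 18.3 (10.1 to 26.5) at day 15. C1galt1, the synthase of that core, stood at 1.78 (0.549 to 3.02) at day 0 and 7.01 (3.14 to 10.9) at day 15, and Gcnt1, which makes core 2, at 0.248 (0 to 0.496) at day 0 and 3.21 (1.47 to 4.95) at day 15. The enzyme Galnt6 stood at 0.0173 (0 to 0.0483) at day 0 and 1.15 (0.369 to 1.92) at day 15. Galnt4, the member apart and lower, stood at 95.7 (52.3 to 139) at day 0 and 35.4 (19.3 to 51.5) at day 15 on a locus 17.8 times its annotated span.

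Retinoid metabolism, which sets the differentiation of the eye surface, had 3 of 17 members apart and higher, none apart and lower (list median 0.66). Crabp2, which carries retinoic acid to its nuclear receptors, was 13.4-fold higher, at 13.2 (2.399 to 23.9) at day 0 and 176 (93.4 to 259) at day 15. Aldh1a3, which makes retinoic acid, was 3.36-fold higher, at 63.1 (35.3 to 90.8) at day 0 and 212 (112 to 312) at day 15. Another enzyme that makes retinoic acid pointed the other way. The merged row of Aldh1a1 and E030003E18Rik was apart and lower, at 187 (102 to 271) at day 0 and 38.7 (19.4 to 58.04) at day 15, and Adh1, an abundant alcohol dehydrogenase, stood at 2373 (1098 to 3649) and 978 (511 to 1445) without being apart. Crabp2 and Aldh1a3 were thus higher, while the abundant dehydrogenases of uninjured cornea had lower values.

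Protease inhibitors had 9 of 25 members apart and higher and 1 apart and lower (list median 0.97). Serpinb1a, an inhibitor of neutrophil proteases, stood at 41.7 (22.3 to 61.1) at day 0 and 137 (76.1 to 197) at day 15. Serpinb10 stood at 3.74 (0 to 8.14) at day 0 and 25.8 (9.23 to 42.4) at day 15, and Spink5, which restrains the kallikreins that shed surface cells, at 16.2 (8.96 to 23.5) at day 0 and 86.3 (47.3 to 125) at day 15. Wfdc2 and Wfdc18, small secreted proteins of glandular epithelia, stood at 94.8 (43.7 to 146) at day 0 and 425 (238 to 611) at day 15 and at 17.5 (0 to 36.1) at day 0 and 203 (97.5 to 309) at day 15. Serpinb5, an epithelial serpin, stood at 142 and 112 and Cst3, the general cystatin, at 62.97 and 74.1.

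Keratocyte genes were lower in part, with 7 of 22 members apart and lower, none apart and higher (list median -0.69). The summed FPKM was 6557 and 3066. Chst5, the sulfotransferase that completes corneal keratan sulfate, was 16.2-fold lower, at 33.4 (18.3 to 48.6) at day 0 and 2.06 (0.0161 to 4.11) at day 15. Lect1, a chondromodulin that restrains vessels, stood at 17.2 (7.68 to 26.6) at day 0 and 0.752 (0 to 1.73) at day 15. Angptl7, a secreted protein of keratocytes, was 8.16-fold lower, at 588 (150.5 to 1025) at day 0 and 72.02 (37.3 to 107) at day 15, on a locus 20.7 times its annotated span. The proteoglycans shared with other connective tissue differed less. Lum, which spaces collagen fibrils, stood at 237 (129 to 346) and 286 (120 to 452) and Dcn at 3484 (1039.8 to 5928) and 2104 (914 to 3295), and Fmod at 38.3 and 45.4. B3gnt7, an enzyme of the keratan sulfate chain, stood at 8.24 and 5.26 and was not apart, and Chst1, another sulfotransferase, was under 1 in both groups. Kera and Chst5 were thus lower, while lumican, decorin and B3gnt7 were not apart.

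Genes of scar matrix and myofibroblasts had a higher value at day 15 in all 28 tested members, of which 9 were apart and higher (list median 1.38). Vcan, a large proteoglycan of provisional matrix, stood at 0.553 (0.0373 to 1.07) at day 0 and 5.75 (2.83 to 8.68) at day 15. Cthrc1, a collagen-associated secreted protein of activated fibroblasts, was 5.75-fold higher, at 18.5 (6.998 to 30) at day 0 and 106 (59.3 to 153) at day 15. Spp1, osteopontin, was 10.2-fold higher, at 15.2 (5.41 to 24.96) at day 0 and 155 (88.4 to 221) at day 15. Fbln2 and Fbn1, of elastic fibres, stood at 15.01 (7.86 to 22.2) at day 0 and 53.5 (30.7 to 76.3) at day 15 and at 9.55 (4.42 to 14.7) at day 0 and 34.3 (17.8 to 50.8) at day 15, and Lox, which cross-links collagen, at 1.79 (0.789 to 2.78) at day 0 and 9.904 (5.43 to 14.4) at day 15. Acta2, the actin of myofibroblasts and of vessel walls, was 4.02-fold higher, at 17.1 (4.93 to 29.3) at day 0 and 68.9 (34.3 to 103) at day 15. Other genes of contractile cells stood at 23.2 and 44.7 (Tagln) and 1.04 and 1.33 (Cnn1) and were not apart.

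Among collagens, 4 of 21 were apart and higher and 1 apart and lower (list median 0.76). Col14a1, a fibril-associated collagen, was 5.85-fold higher, at 4.25 (2.07 to 6.43) at day 0 and 24.9 (13.4 to 36.3) at day 15. Col18a1, the basement membrane collagen that holds endostatin, was 10.6-fold higher, at 3.104 (1.1 to 5.11) at day 0 and 32.8 (18.6 to 46.9) at day 15. Col8a1, of the endothelial basement membrane, stood at 11.1 (6.48 to 15.7) at day 0 and 26.9 (15.99 to 37.9) at day 15. Col4a3, a chain of mature basement membrane, was 5.41-fold lower, at 9.55 (3.95 to 15.2) at day 0 and 1.77 (0.555 to 2.98) at day 15, and its partner Col4a4 stood at 7.85 (1.81 to 13.9) and 2.01 (0.638 to 3.37). The chains Col4a1 and Col4a2, common to vessels, stood at 13.1 and 29.7 and at 14.6 and 37.7. The main stromal collagen Col1a1 stood at 695 (227 to 1163) and 1472 (312 to 2632), and Col5a1, which sets fibril width, at 67.5 and 56.8. Neither was apart.

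Of 20 matrix metalloproteinases and inhibitors, 5 were apart and higher and 1 apart and lower (list median 1.08). Mmp12, the elastase of macrophages, stood at 0.65 (0.0752 to 1.23) at day 0 and 21.9 (12.1 to 31.7) at day 15, and Mmp9, a gelatinase, at 0.176 (0 to 0.369) at day 0 and 3.59 (1.57 to 5.6) at day 15. Plaur, the receptor of urokinase, was 13.9-fold higher, at 2.21 (0 to 4.48) at day 0 and 30.7 (12.9 to 48.6) at day 15, and Mmp15, a membrane-bound enzyme, 3.13-fold higher, at 3.43 (1.47 to 5.38) at day 0 and 10.7 (5.85 to 15.6) at day 15. Mmp28, epilysin of epithelia, was 4.83-fold lower, at 14.05 (6.06 to 22.04) at day 0 and 2.91 (0.436 to 5.38) at day 15. The merged row of Adam8 and 6430531B16Rik was apart and higher, at 0.613 (0.043 to 1.18) at day 0 and 23.8 (13.2 to 34.3) at day 15. Timp1, the inducible inhibitor, stood at 2.13 (0 to 9.52) and 37 (0 to 76.7) and Timp3, the matrix-bound one, at 83.5 and 56.9, and neither was apart.

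Genes of the corneal endothelial layer did not move as a group. Of 20 tested members, 3 were apart and higher and 2 apart and lower (list median 0.25). Aqp1, the water channel of corneal endothelium and keratocytes, was 3.02-fold lower, at 157 (88.7 to 225) at day 0 and 51.9 (28.6 to 75.2) at day 15. Slc4a4, the sodium bicarbonate cotransporter, stood at 15.7 (2.56 to 28.8) and 3.58 (1.08 to 6.07) and was not apart. Car12, a membrane-bound carbonic anhydrase, was 30.7-fold higher, at 4.17 (1.899 to 6.44) at day 0 and 128 (70.4 to 186) at day 15, and Car2, a cytosolic one, 13.1-fold higher, at 2.41 (0 to 5.15) at day 0 and 31.6 (14.1 to 49.2) at day 15. Carbonic anhydrases are also genes of other epithelia and of leukocytes.

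Blood vessel genes had a higher value in all 29 tested members, with 12 apart and higher, none apart and lower (list median 1.36). Cdh5, Flt1, Tek, Vwf, Sox18, Aplnr, Apln, Ptprb, Icam2 and Gpihbp1 were under 1 FPKM at day 0, so the filter fixed their direction. The direction of the other members was not fixed in this way. The levels were low, with a summed FPKM of 74.7 at day 0 and 289 at day 15. Aplnr, the apelin receptor of growing vessels, stood at 0.601 (0 to 1.29) at day 0 and 9.99 (4.72 to 15.3) at day 15, and Cd93, a receptor of sprouting endothelium, at 1.36 (0.403 to 2.32) at day 0 and 12 (6.55 to 17.5) at day 15. Emcn, endomucin of capillaries and veins, was 5.08-fold higher, at 7.97 (0.804 to 15.1) at day 0 and 40.5 (17.8 to 63.1) at day 15. Erg, an endothelial transcription factor, was 4.67-fold higher, at 12.04 (5.97 to 18.1) at day 0 and 56.3 (44.8 to 67.8) at day 15. S1pr1, the sphingosine phosphate receptor that steadies vessels, stood at 1.75 (0.276 to 3.22) and 9.31 (4.55 to 14.1). Kdr, the VEGF receptor of endothelium, had the smallest ratio of the list, with 3.66 (1.67 to 5.64) and 3.88 (1.69 to 6.07). Endothelial genes of at least 1 FPKM at day 0 thus had values above uninjured cornea at the stage that the labels call regression. At day 5, Aplnr, Cd93, Emcn and Erg stood at 11.2, 16.1, 34.7 and 118.

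Other vessel compartments gave fewer calls. Of 13 pericyte and mural genes, 2 were apart and higher, Acta2 and Mcam, an adhesion molecule of vessel walls that stood at 1.701 (0.429 to 2.97) at day 0 and 7.72 (3.41 to 12.04) at day 15. Rgs5, a regulator of G protein signals in pericytes, stood at 11.5 (2.33 to 20.7) and 34.2 (13.4 to 54.9). None of 9 lymphatic genes was apart, though all 9 had a higher value (list median 0.73). Lyve1, the hyaluronan receptor of lymphatic endothelium, stood at 0.805 (0 to 1.69) and 1.84 (0.573 to 3.105) and Prox1, its master factor, at 0.629 and 1.69. Of 17 growth factors of vessels, none was apart and higher and 1, Fgf1, was apart and lower, at 5.89 (2.83 to 8.94) at day 0 and 1.67 (0.511 to 2.83) at day 15, with intervals that nearly touched. Vegfa stood at 4.04 (0.655 to 7.42) and 4.76 (1 to 8.51) and Angpt1 at 1.59 (0.477 to 2.697) and 3.86 (1.86 to 5.86). The merged row of Ang and Rnase4, outside that count, was apart and higher, at 12.2 (4.31 to 20) at day 0 and 62.6 (34.1 to 91.1) at day 15. Among 15 factors that restrain vessels, 2 were apart and higher (Col18a1 and Pf4) and 3 apart and lower (Lect1, Col4a3 and Angptl7) (list median 0.21). Genes of red blood cells and platelets had 4 of 7 members apart and higher, which were Hba-a2, Hbb-bs, Pf4 and Ppbp. The 2 members with a lower value were Alas2, at 8.27 and 4.01, and Itga2b, at 10.01 and 4.34, neither apart. The merged row of Gp1bb and Sept5, outside that count, stood at 21.4 and 13.7 and was not apart. Hba-a2, a haemoglobin chain, stood at 5.12 (0 to 11.7) at day 0 and 58.8 (19.8 to 97.9) at day 15 and Hbb-bs at 1.77 (0 to 3.93) at day 0 and 12.9 (4.16 to 21.7) at day 15. Their part in the values of other blood-borne genes was not tested.

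Leukocyte genes were higher across several lists. Of 30 macrophage and monocyte genes, 16 were apart and higher and 29 had a higher value (list median 1.93). Their summed FPKM was 1555 at day 0 and 5150.2 at day 15. Ctss, the cathepsin of antigen-presenting cells, was 8.71-fold higher, at 33.04 (17.5 to 48.6) at day 0 and 288 (157 to 418) at day 15. Trem2, a lipid receptor of macrophages, was 9.03-fold higher, at 1.06 (0 to 2.201) and 9.59 (3.56 to 15.6), and its adaptor Tyrobp 10.2-fold higher, at 3.44 (0.291 to 6.596) and 35.2 (17 to 53.4), on a symbol with several rows. Msr1, a scavenger receptor, stood at 1.13 (0 to 2.94) and 17.9 (6.77 to 28.99) on a locus 7.64 times its annotated span. Mrc1, the mannose receptor, stood at 5.03 (1.82 to 8.24) and 24.3 (12.2 to 36.4). The exception in direction was Cd163, the haemoglobin scavenger of resident macrophages, at 3.196 and 2.41.

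Neutrophil genes had 8 of 13 members apart and higher and a higher value in all 13 (list median 1.70). Il1r2, the decoy receptor of interleukin 1, was 4.21-fold higher, at 15.8 (7.32 to 24.3) at day 0 and 66.7 (36.95 to 96.4) at day 15. Cxcr2, the receptor that brings neutrophils into tissue, stood at 0.451 (0 to 0.933) and 2.99 (1.21 to 4.77), Csf3r, the receptor of their growth factor, at 0.363 (0 to 0.83) and 2.69 (0.906 to 4.47), and Clec4d, a lectin receptor, at 0.313 (0 to 0.872) and 4.496 (1.18 to 7.81). The genes of neutrophil granule precursors Mpo, Elane and Prtn3 were listed at 0 in both groups. Levels in this list were thus low apart from Ltf, Il1r2 and the S100 genes. Of 9 dendritic cell genes, 3 were apart and higher. Irf8, their transcription factor, stood at 0.688 (0.119 to 1.26) and 3.16 (1.28 to 5.04), Itgax at 0.363 (6.47e-05 to 0.725) and 1.91 (0.727 to 3.101) and Fscn1, the actin bundler of mature dendritic cells, at 2.25 (0.871 to 3.64) and 8.75 (4.31 to 13.2). Cd207, langerin of Langerhans cells, stood at 0.0853 and 0.117 and was under 1 in both groups.

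Among lymphocyte and mast cell genes none was apart. Of 26 T and NK cell genes on rows of their own only 6 were tested, and none was apart. Cd3e stood at 0.0825 (0 to 0.255) and 0.353 (0 to 0.821) and Cd8a at 0 and 0.0701. Klrd1, a receptor of NK cells, stood at 0.596 and 4.53 and Gzma, a granzyme, at 0.219 and 3.03. Of 14 B and plasma cell genes, 3 were tested and none was apart. Those 3 (Sdc1, Xbp1 and Prdm1) are also genes of epithelia. Of 6 tested mast cell and eosinophil genes none was apart. Cpa3, the carboxypeptidase of mast cells, stood at 14.4 (0 to 43.6) at day 0 and was listed at 0 at day 15, while the mast cell proteases Cma1 and Mcpt4 stood at 4.76 and 5.34 and at 4.16 and 3.52.

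Cytokines and chemokines had 9 of 28 members apart and higher, 26 with a higher value (list median 1.72). Il33, an alarm cytokine stored in epithelial nuclei, was 11.03-fold higher, at 6.02 (2.23 to 9.81) at day 0 and 66.4 (39.3 to 93.5) at day 15. Il1rn, the antagonist of interleukin 1, was 3.43-fold higher, at 25 (12.3 to 37.7) at day 0 and 85.8 (48.2 to 123) at day 15. Ccl8 and Ccl6, which attract monocytes, stood at 0.623 (0 to 1.44) at day 0 and 27.7 (13.2 to 42.3) at day 15 and at 2.07 (0 to 4.66) at day 0 and 59.8 (31.6 to 87.96) at day 15, the latter on a locus 8.003 times its annotated span. Ccl4, which attracts monocytes and lymphocytes, stood at 0.644 (0 to 1.69) at day 0 and 13.2 (3.67 to 22.8) at day 15. Cytokines of lymphocytes were scarce, with Ifng at 0 and 0.119 and Il17a at 0.284 and 0.557, and Tnf stood at 3.6 and 2.38. Against day 5 the values were lower for some and not for others. Cxcl2, which attracts neutrophils, stood at 135 at day 5 and 12.3 at day 15, and Ccl8 at 16.6 and 27.7.

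Complement had 6 of 15 members apart and higher (list median 1.14). C1qb was 6.46-fold higher, at 28.1 (9.23 to 46.98) at day 0 and 182 (97.1 to 266) at day 15, and C1qc 4.25-fold higher, at 4.63 (0.846 to 8.42) at day 0 and 19.7 (8.64 to 30.7) at day 15, both chains of the first component made by macrophages. C3ar1, the receptor of fragment C3a, stood at 0.913 (0.0541 to 1.77) at day 0 and 6.15 (2.92 to 9.39) at day 15, Cfp, properdin, at 0.796 (0.267 to 1.33) at day 0 and 4.25 (1.87 to 6.62) at day 15, and Hc, the gene of component C5, at 0.161 (0 to 0.351) at day 0 and 1.56 (0.604 to 2.51) at day 15. The central component C3 stood at 1.28 (0.657 to 1.91) and 2.03 (1.04 to 3.01) and was not apart. Antigen presentation genes had 3 of 14 members apart and higher (list median 0.68). H2-Ab1, a class II chain, was 3.098-fold higher, at 27.6 (15.6 to 39.7) at day 0 and 85.6 (47.8 to 123) at day 15. B2m, the light chain of class I, stood at 88.3 (43.3 to 133) at day 0 and 270.5 (149 to 391) at day 15 on a locus 12.2 times its annotated span. None of 26 interferon response genes was apart (list median 0.42). Isg15, a ubiquitin-like protein, stood at 42.9 (22.98 to 62.9) and 58.4 (27.9 to 88.9) and Ifit1 at 25.02 and 33.6.

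Antimicrobial genes had 5 of 12 members apart and higher and 1 apart and lower (list median 1.85). Lcn2, which binds bacterial siderophores, stood at 0.942 (0 to 1.95) at day 0 and 11.8 (4.599 to 19.02) at day 15. S100a7a, a psoriasin, was 5.24-fold lower, at 22.3 (12.3 to 32.4) at day 0 and 4.26 (1.38 to 7.15) at day 15. Genes of the arachidonate pathway had 4 of 17 members apart and higher (list median 0.46). Hpgd, which degrades prostaglandins, was 9.14-fold higher, at 9.11 (0.523 to 17.7) at day 0 and 83.3 (43.7 to 123) at day 15. Alox12e, an epidermal lipoxygenase, was 9.17-fold higher, at 6.502 (2.82 to 10.2) at day 0 and 59.6 (33.5 to 85.8) at day 15, and Alox15 4.31-fold higher, at 5.24 (1.795 to 8.68) at day 0 and 22.6 (11.3 to 33.9) at day 15. Ptgs2, the inducible enzyme that makes prostaglandins, was 3.896-fold higher, at 1.49 (0.509 to 2.46) at day 0 and 5.79 (2.79 to 8.79) at day 15. Enzymes that make and that remove lipid mediators were thus both among those higher.

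The inflammatory caspases formed a run of 3 neighbours on chromosome 9. Casp1, which cleaves interleukin 1 beta, was 31.2-fold higher, at 1.14 (0 to 2.47) at day 0 and 35.6 (18.4 to 52.9) at day 15. Casp4, the sensor of bacterial lipopolysaccharide also known as caspase 11 in mice, stood at 0.426 (0 to 1.07) at day 0 and 9.46 (3.47 to 15.4) at day 15, and Casp12 at 4.002 (0.933 to 7.07) at day 0 and 21.7 (11.1 to 32.3) at day 15, 5.43-fold higher. All 3 tested rows of the span from 5298517 to 5373034 were apart and higher.

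The corneal stroma and epithelium carry sensory nerves and their Schwann cells. None of 14 Schwann cell and myelin genes was apart, and their median was 0.09. Mbp, a main protein of myelin, stood at 33.1 (18.2 to 48.1) and 34.9 (19.4 to 50.5). The cell bodies of the corneal sensory neurons lie in the trigeminal ganglion, outside the tissue. Genes of nerve growth and guidance had 1 of 22 members apart and higher and 2 apart and lower (list median -0.70). Ntrk2, the receptor of brain-derived neurotrophic factor, was 15.1-fold lower, at 36.9 (20.8 to 52.9) at day 0 and 2.45 (1.07 to 3.83) at day 15. Nrg1, a neuregulin that acts on Schwann cells and epithelia, stood at 22.2 (0.00708 to 44.4) and 1.91 (0 to 4.83) and Ntf3, a neurotrophin, at 26.95 (11.5 to 42.4) and 8.896 (2.31 to 15.5), and neither was apart. Penk, which encodes the enkephalin precursor, was 3.48-fold higher, at 24.8 (13.1 to 36.5) at day 0 and 86.2 (47.6 to 125) at day 15.

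Metabolic genes of glycogen were prominent among the lower rows. Of 20 tested members, 4 were apart and lower and 2 apart and higher (list median -0.27), and the summed FPKM was 1211 at day 0 and 206 at day 15. Gyg, the primer of glycogen chains and the most abundant member, was 11.5-fold lower, at 907 (488 to 1326) at day 0 and 78.8 (41.6 to 116) at day 15. Pygl, a phosphorylase that releases glucose from glycogen, was 10.4-fold lower, at 65.8 (36.9 to 94.7) at day 0 and 6.32 (2.75 to 9.89) at day 15. Ppp1r3c, which brings the phosphatase to glycogen, stood at 127 (66.8 to 188) and 0.414 (0 to 0.917). Ppp1r3b, a related subunit, stood the other way, at 0.811 (0.012 to 1.61) at day 0 and 6.497 (2.96 to 10.04) at day 15. Pgm1, of the phosphoglucomutase family, was 2.93-fold higher, at 13.03 (7.66 to 18.4) at day 0 and 38.2 (21.6 to 54.9) at day 15. Pgm2, of the same family, stood at 13.3 and 12.8 and was not apart. Synthase Gys1 stood at 2.04 and 3.07. The sum was carried by Gyg, Ppp1r3c and Pygl, and most other members differed little. Ppp1r3a, the subunit of skeletal muscle, was apart and lower at a level near the threshold, at 1.28 (0.407 to 2.15) at day 0 and 0.139 (0 to 0.314) at day 15.

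Sterol synthesis genes were lower in value in 19 of 21 tested members (list median -0.94), and 1 was apart and lower. That member was Insig1, which holds the sterol sensor in the endoplasmic reticulum and is itself a target of the sterol factor, at 261 (143 to 379) at day 0 and 49.6 (25.8 to 73.4) at day 15, a 5.26-fold lower value. Lss, which closes the sterol ring, stood at 84.9 (42.9 to 127) and 31.8 (16.2 to 47.4) and Sqle, the epoxidase that acts before Lss, at 236 (131 to 340.2) and 98.8 (54.7 to 143). Hmgcs1, which acts early in the pathway, stood at 216 (108 to 323) and 96.95 (52.4 to 141) and the master factor Srebf2 at 45.95 (23.6 to 68.3) and 24.9 (12.6 to 37.1). The late enzymes Ebp and Dhcr7 were the 2 members without a lower value, at 34.5 and 36.6 and at 11.98 and 12.3. Most of the pathway therefore stood at a similar, moderate distance below day 0, within intervals that overlapped.

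Of 19 tested fatty acid and lipid droplet genes, 5 were apart and higher and none apart and lower (list median 0.18). Those 5 act in uptake and storage. Fabp5, the epidermal fatty acid carrier, was 3.78-fold higher, at 512 (274 to 750.1) at day 0 and 1936 (948 to 2924) at day 15, and Fabp4, the carrier of macrophages, fat and capillaries, 12.3-fold higher, at 1.45 (0 to 3.302) at day 0 and 17.8 (6.04 to 29.6) at day 15. Cidea, which enlarges lipid droplets, stood at 0.952 (0.0337 to 1.87) at day 0 and 13.7 (6.67 to 20.7) at day 15, Cd36, a fatty acid transporter, at 1.71 (0.192 to 3.22) at day 0 and 7.64 (3.57 to 11.7) at day 15, and Lpl, the lipoprotein lipase, at 1.37 (0.284 to 2.45) at day 0 and 6.603 (3.03 to 10.2) at day 15. Fasn, the fatty acid synthase, stood at 24.8 (12.6 to 37.1) and 12.2 (6.79 to 17.6), the desaturase gene Scd2 at 259 (114 to 404) and 82.5 (44.9 to 120) and the elongase gene Elovl6 at 32.9 (15.3 to 50.5) and 13.9 (7.38 to 20.4), and none of them was apart. The other tested elongases Elovl1, Elovl4 and Elovl7 stood at 39.2 and 40.6, 2.05 and 3.49 and 3.08 and 3.62, and the droplet coat gene Plin2 at 32.99 and 36.1. The fat cell genes Plin1 and Cidec were listed at 0 in both groups.

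Antioxidant genes had 3 of 28 members apart and higher and none apart and lower (list median 0.22). Hmox1, which breaks down haem, was 7.597-fold higher, at 3.53 (0.0272 to 7.02) at day 0 and 26.8 (12.4 to 41.2) at day 15. Mgst1, a membrane-bound glutathione transferase, was 8.59-fold higher, at 19.96 (6.98 to 32.9) at day 0 and 171 (104 to 239) at day 15, and Gpx3, the secreted glutathione peroxidase, 3.86-fold higher, at 28.8 (11.6 to 45.95) at day 0 and 111 (62.2 to 159.7) at day 15. The members on rows of their own that were most abundant at day 0 had lower values that were not apart. Gsta4, which removes aldehydes of lipid peroxidation, stood at 5428 (0 to 11129) and 2182 (535 to 3829.7) and Prdx6 at 1958 (757 to 3158) and 582 (254 to 909.6). The list's summed FPKM was thus lower, at 9039.9 and 4680.4, although its 3 calls were higher. That sum leaves out the merged row of Gsto1 and Gsto2, which was more abundant than either and stood at 6972 and 8244, not apart. Glycolysis had 1 of 22 members apart and higher, Pfkp, a phosphofructokinase, at 10.95 (4.01 to 17.9) at day 0 and 39.6 (19.4 to 59.9) at day 15, and 1 apart and lower, Eno3, the enolase of muscle (list median 0.47). Respiratory chain subunits had 1 of 29 apart, Sdhc, which was 3.399-fold higher, at 30.2 (20.98 to 39.5) at day 0 and 103 (60.9 to 144) at day 15 (list median -0.07).

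Cell cycle genes showed no member apart among 30 (list median 0.02). Mki67, expressed in all cycling cells, stood at 12.5 (6.66 to 18.3) and 11.1 (6.07 to 16.2) and Top2a at 21.97 (11.4 to 32.5) and 26.1 (14.5 to 37.6). Genes of the unfolded protein response had 1 of 22 members apart, Trib3, a pseudokinase, which was lower, at 4.57 (1.46 to 7.69) at day 0 and 0.567 (0 to 1.196) at day 15, and Hspa5, the main chaperone of the secretory pathway, stood at 206 and 239. Among heat shock and immediate early genes, 5 of 26 were apart and higher and 1 apart and lower (list median 0.26). Fos was 3.11-fold higher, at 29.3 (14.9 to 43.6) at day 0 and 91.1 (53.9 to 128) at day 15, and Fosb 6.96-fold higher, at 2.62 (0.489 to 4.74) at day 0 and 18.2 (8.59 to 27.8) at day 15, both subunits of the AP-1 factor. Atf3, a stress factor, was 4.41-fold higher, at 5.86 (0.891 to 10.8) at day 0 and 25.8 (12.1 to 39.5) at day 15, Egr1 3.08-fold higher, at 3.71 (1.31 to 6.11) at day 0 and 11.5 (6.41 to 16.5) at day 15, and Nr4a1, an orphan receptor induced with them, stood at 0.908 (0.16 to 1.66) at day 0 and 8.46 (4.05 to 12.9) at day 15. Hspb1, a small heat shock protein of epithelia, was 5.69-fold lower, at 271 (143 to 399.7) at day 0 and 47.7 (20.6 to 74.8) at day 15. Other AP-1 members were not apart and differed in direction, with Jun at 76.4 and 115, Junb at 108 and 64.9, Jund at 18.9 and 8.44 and Fosl2 at 66.7 and 28.01.

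Of 17 clock genes, 2 were apart and lower and none apart and higher (list median -0.35). Arntl, the BMAL1 partner of CLOCK, was 6.34-fold lower, at 14.4 (5.62 to 23.1) at day 0 and 2.26 (0.496 to 4.03) at day 15. Hlf, an output factor of the clock, was 3.04-fold lower, at 17.03 (9.94 to 24.1) at day 0 and 5.601 (2.93 to 8.27) at day 15. None of the following genes, which run in the opposite phase to Arntl, was apart. Per2 stood at 12.4 (3.61 to 21.1) and 11.4 (4.21 to 18.6), Nr1d1 at 34.7 (13.3 to 56.1) and 26.5 (12.3 to 40.8) and Dbp at 23.5 (0 to 66.3) and 18.2 (0 to 52.8), while Per3 stood at 34.7 and 21.99 and Ciart at 9.67 and 5.23. The labels do not give the hour of sampling.

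Wnt genes had 6 of 24 members apart and lower and 1 apart and higher (list median -0.41). Both ligands and inhibitors were lower. Wnt3a, a ligand of the beta-catenin branch, was 8.56-fold lower, at 24.8 (12.8 to 36.8) at day 0 and 2.896 (0.723 to 5.07) at day 15. Wnt11 and Wnt5a, ligands of the other branch, were 4.89-fold and 3.56-fold lower, at 9.87 (4.08 to 15.7) at day 0 and 2.02 (0.301 to 3.74) at day 15 and at 21.7 (10.4 to 32.96) at day 0 and 6.09 (2.39 to 9.801) at day 15. Dkk2, a secreted inhibitor that keeps the corneal surface from becoming skin-like in mice, was 4.77-fold lower, at 67.9 (35.8 to 100) at day 0 and 14.3 (7.57 to 20.9) at day 15. Fzd1, a receptor, was 3.53-fold higher, at 6.17 (3.22 to 9.11) at day 0 and 21.8 (12.2 to 31.4) at day 15. Axin2, the general target of the beta-catenin branch, stood at 2.79 (1.17 to 4.401) and 2.64 (1.02 to 4.26) and was not apart. Wnt2 stood at 3.94 (1.805 to 6.07) and 0.804 (0.109 to 1.499) and Dkk1 at 1.15 (0.158 to 2.15) and 0.0266 (0 to 0.0987), both apart and lower at low levels.

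**Figure D3:**
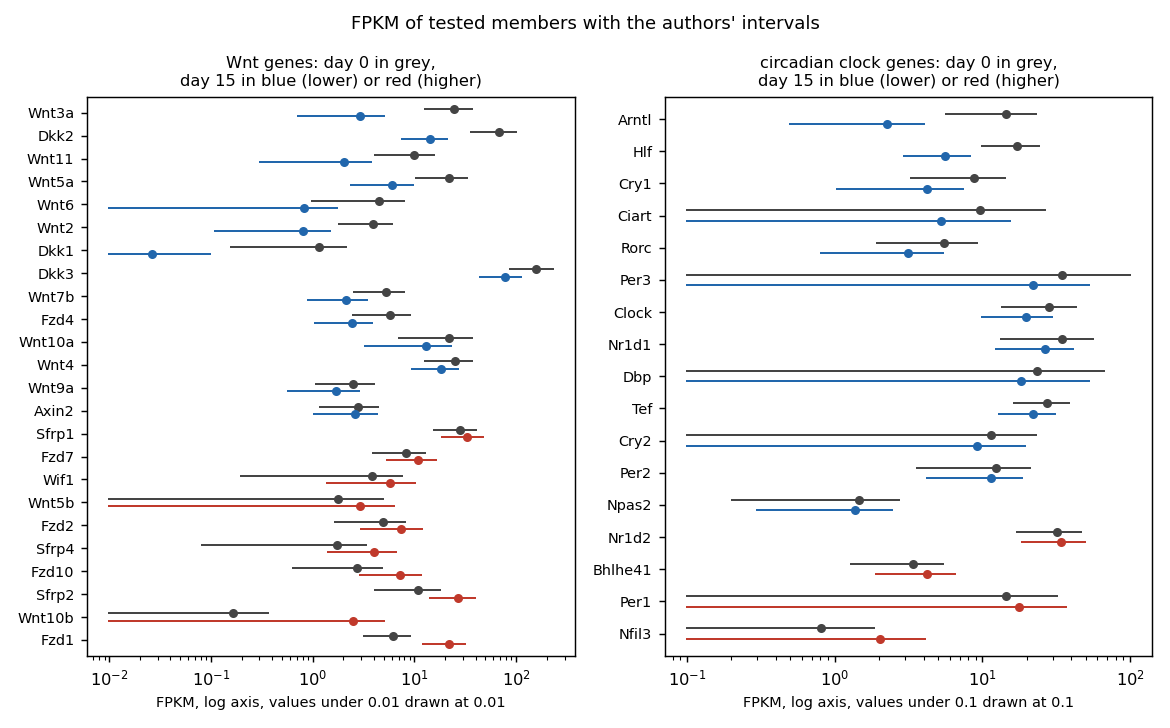
FPKM (horizontal, log axes) with the authors' intervals for the tested members of the Wnt and clock lists, ordered by log2 ratio, with day 0 in grey and day 15 in blue where lower or red where higher. In the Wnt list Wnt3a, Dkk2, Wnt11, Wnt5a, Wnt2 and Dkk1 on the lower side and Fzd1 on the higher side are separated from day 0, and in the clock list Arntl and Hlf.

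Among TGF-beta and BMP genes, 3 of 25 were apart and higher and 1 apart and lower (list median 0.53). Inhba, which encodes the subunit of activin A, stood at 0.51 (0 to 1.37) at day 0 and 11 (3.998 to 18) at day 15, and Fst, the follistatin that binds activin, was 6.19-fold higher, at 1.304 (0.28 to 2.33) at day 0 and 8.07 (4.02 to 12.1) at day 15. Bmp1, the protease that matures procollagen, was 3.07-fold higher, at 3.47 (1.8 to 5.14) at day 0 and 10.7 (6.15 to 15.2) at day 15. Bmp3 was 11.6-fold lower, at 19.3 (9.299 to 29.4) at day 0 and 1.66 (0.53 to 2.796) at day 15. An activin subunit and its binding protein were thus both higher. The TGF-beta ligands stood at 1.32 and 1.48 (Tgfb1), 3.103 and 8.56 (Tgfb2) and 18.02 and 48.3 (Tgfb3), none apart. None of 13 Notch genes was apart, and their median was -0.07.

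Whole corneas can carry neighbouring tissue. Skeletal muscle genes had a lower value in all 18 tested members, with 8 apart and lower and the lowest median of the lists, -2.20. Their summed FPKM was 699 at day 0 and 97.95 at day 15, and the fast myosin genes Myh2, Myh1 and Myh4 stood at 5.64 and 0.652, 5.05 and 0.668 and 1.62 and 0.0856. Tnnc2, a fast troponin, stood at 78.3 (31.8 to 125) at day 0 and 13.98 (2.99 to 24.97) at day 15, with exons that overlap Ube2c on the other strand. Several other genes with lower values are muscle forms. Eno3 stood at 31.4 (16.4 to 46.3) at day 0 and 4.38 (1.399 to 7.37) at day 15, Sln, the muscle regulator of the calcium pump, at 27.6 (16.4 to 38.9) at day 0 and 1.34 (0.165 to 2.52) at day 15, and the cytochrome oxidase subunits Cox6a2 and Cox8b at 6.23 and 1.49 and at 24.7 and 12.04. The part of muscle in these values, and in Ppp1r3a, was not tested. Lens genes had 0 of 13 members apart, a median of -0.51 and a summed FPKM of 452 and 303. Pigment genes of the iris had 0 of 12 apart and a summed FPKM of 416 and 289.7. Photoreceptor genes had 0 of 13 apart and a summed FPKM of 69.5 and 126. Genes of lacrimal and eyelid glands on rows of their own were nearly all under 1 in both groups. The major gland genes Lcn3, Scgb1b27, Obp1a and Prol1 were listed at 0 in both, whereas the merged row of Esp5, Esp6 and Esp6Esp5 stood at 3125 at day 15.

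**Figure D4:**
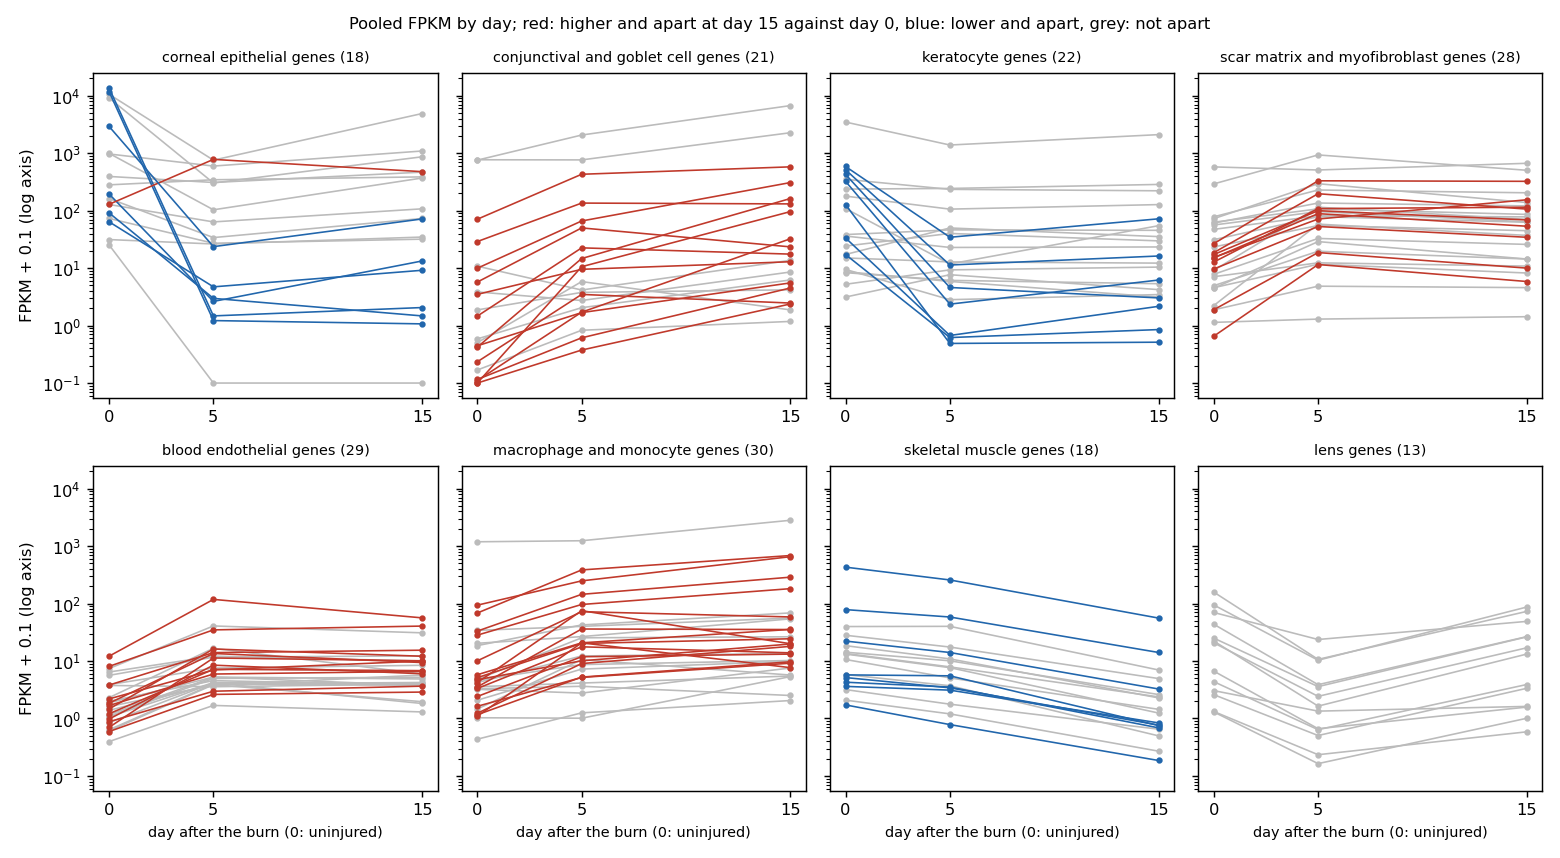
Pooled FPKM + 0.1 (vertical, log axis) at days 0, 5 and 15 (horizontal) for the tested members of 8 lists, with 1 line per gene, red where apart and higher at day 15 against day 0, blue where apart and lower and grey where not apart. The keratocyte and epithelial genes in blue are low at both later days, the 18 skeletal muscle genes are lowest at day 15, and the 13 lens genes are lowest at day 5, with none of the lens genes apart at day 15.

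Rows apart in the same direction lay close together in 12 places, taking 3 or more such rows whose starts lay within 200 kb of the next, with or without other tested rows between them. There were 8 such runs of higher rows, with 28 rows, and 4 of lower rows, with 13. On chromosome 15, 2 runs of opposite direction were neighbours. Lynx1, a membrane-anchored toxin-like modulator of nicotinic receptors, ended the lower run from 74721234 to 74753084 and stood at 122 (66.98 to 176) at day 0 and 4.29 (1.83 to 6.76) at day 15. The next run, from 74762056 to 74999064, had 3 of its 6 tested rows apart. It held Ly6d, a surface protein of stratified epithelia, at 8.13 (0.823 to 15.4) at day 0 and 97.6 (55.8 to 139) at day 15, Ly6e at 43.3 (23.98 to 62.7) at day 0 and 157 (82.4 to 232) at day 15 and Ly6a, a stem cell antigen also of endothelium, at 115 (61.8 to 168) at day 0 and 383 (194 to 573) at day 15. They were 12.01-fold, 3.63-fold and 3.33-fold higher. All belong to the Ly6 family, and the gap between the runs reached from 74753084 to 74762056. On chromosome 1, Serpinb7, Serpinb2 and Serpinb10 formed a run from 107399506 to 107549271, in which Serpinb7 stood at 1.43 (0.196 to 2.66) and 13.2 (6.08 to 20.3). On the same chromosome the Fc receptor genes Fcgr2b, Fcgr3 and Fcer1g stood at 3.57 (0 to 7.81) and 19.6 (8.48 to 30.6), 2.31 (0.196 to 4.43) and 13.1 (5.46 to 20.7) and 9.97 (0 to 20.1) and 58.3 (23.1 to 93.6), and Sdhc, a mitochondrial gene, lies among them. These 4 rows were part of 8 tested rows in their span. Runs on chromosome 11 held Krt19, Krt16 and Krt17, and Cd300a, Cd300ld and Cd300lf, receptors of myeloid cells that stood at 0.135 and 1.63, 0.961 and 5.96 and 0.157 and 1.697. Their spans had 4 and 6 tested rows. A lower run on chromosome 5, from 137650481 to 137921619, had 3 of its 10 tested rows apart. It held Agfg2 at 63.5 (33.2 to 93.7) and 10.9 (4.06 to 17.8), Zcwpw1 at 7.35 (3.12 to 11.6) and 1.11 (0 to 2.496) and Cyp3a13, a cytochrome of drug metabolism, at 83.3 (48.96 to 118) and 26.5 (14.7 to 38.2).

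Promoters were compared because many of the rows higher at day 15 are secreted, inducible products, a class often read from TATA promoters. RefSeq promoter windows of 250 bases before to 50 after each start (GRCm38.p6) were found for 295 genes apart and higher, 157 apart and lower and 9517 tested. The word TATAAA, searched on the gene's strand within 50 bases before the start, lay in 8.42% of 368 windows of higher genes, 6.38% of 188 windows of lower genes, 1.82% of windows of tested genes and 2.63% of all windows. Over both strands and all 300 bases it lay in 23.1%, 16.5%, 7.78% and 13.6%. TGANTCA, the AP-1 word, lay in 11.1% of windows of higher genes, 4.79% of lower, 5.65% of tested and 7.81% of all. GGGTGTG, a KLF word, lay in 8.70%, 11.7%, 8.66% and 7.95%, and GATAA in 20.7%, 18.1%, 16.7% and 25.4%. The share of windows with TATAAA was thus higher among genes apart in either direction than among tested genes, a difference that was not tested, and a gene with several starts counts once for each. These are descriptions of letters and not of binding. Among the 30 largest differences in each direction, 24 higher genes and 17 lower genes had a window, and TATAAA lay from 40 to 11 bases before the start in 9 and in 1 of them. A few of those 30-base stretches are shown on the gene's strand, 5′ to 3′, with TATAAA in capitals, to let the position of the word be seen beside the values above.
Serpinb2: gggcagagtctTATAAAaccagtcattacc
Cxcl3: agtcatcatgTATAAAaggggttcgcaggg
Reg3g: cctcaagtcctacTATAAAaacagtcatct
Ccl8: ctgctcccTATAAAaggcagattagagcct
Dapl1: ccccctgaagcTATAAAgccttagtgaggt
Serpinb2 (chr1:107511383-107511412, forward strand), which stood at 2.77 at day 0 and 180.3 at day 15, and Dapl1 (chr2:59484613-59484642, forward strand), which stood at 1760.4 at day 0 and 205 at day 15, hold the word at the same distance, with its first base 29 before the start. Cxcl3 has it 30 before (chr5:90786061-90786090, forward strand), Reg3g 27 before (chr6:78468885-78468914, reverse strand) and Ccl8 32 before (chr11:82115145-82115174, forward strand). The same word at nearly the same place thus stood in genes that were higher and in 1 that was lower.

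Large differences were not always apart. Among genes on rows of their own, microRNA loci aside, Aldh3a1, Trpm3, Krt4 and Stk35 passed 100 FPKM with a log2 ratio of at least 2.5 in size and overlapping intervals. Stk35, a kinase gene with several rows, stood at 146 (8.33 to 283) at day 0 and 6.23 (2.25 to 10.2) at day 15, and its intervals overlapped narrowly. Merged rows of the same kind included that of Tkt and Mir3076, at 1275 and 184, and that of Tnni2 and Syt8, at 128 and 20.9. Among genes whose intervals did not overlap, those nearest the ratio threshold of 1 lay at low levels. Just inside it were Chgb (0.18 and 1.45), Ephb2 (0.635 and 2.39), Dkk1 (1.15 and 0.0266), Ppp1r3a (1.28 and 0.139) and Tmc3 (1.09 and 0.0339). Just outside it, with intervals that did not overlap, were Acan (0.0227 and 1.04), Clca1 (0.0686 and 1.08), Drd4 (0.313 and 1.49), Pcdh19 (0.292 and 1.55) and Pla2g2f (1.06 and 0.0479), all with log2 ratios just under 1 in size. Some of the highest listed values had intervals too wide to read, such as Rad9a, at 633110 at day 0 with an interval of 0 to 5640890. Among other abundant genes Tmsb4x, an actin-binding peptide, stood at 11089.6 (3504 to 18675) and 8725 (3021 to 14429.5) and Eef1a1, an elongation factor, at 5973 (1810 to 10136) and 5535 (1338 to 9732). Sirt1, a deacetylase followed in every comparison, stood at 2.15 (0.823 to 3.47) and 2.68 (1.301 to 4.06) and was not apart. Of 15 reference genes 1 was apart, B2m (list median 0.29).

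Across the 52 lists, 34 had a member apart and higher, 22 a member apart and lower and 11 none. The lists farthest above 0 by their medians, with at least 5 tested members, were those of red blood cells and platelets (2.33), conjunctiva and goblet cells (2.14) and macrophages (1.93), and those farthest below were skeletal muscle (-2.20), corneal epithelium (-1.30) and sterol synthesis (-0.94).

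**Figure D5:**
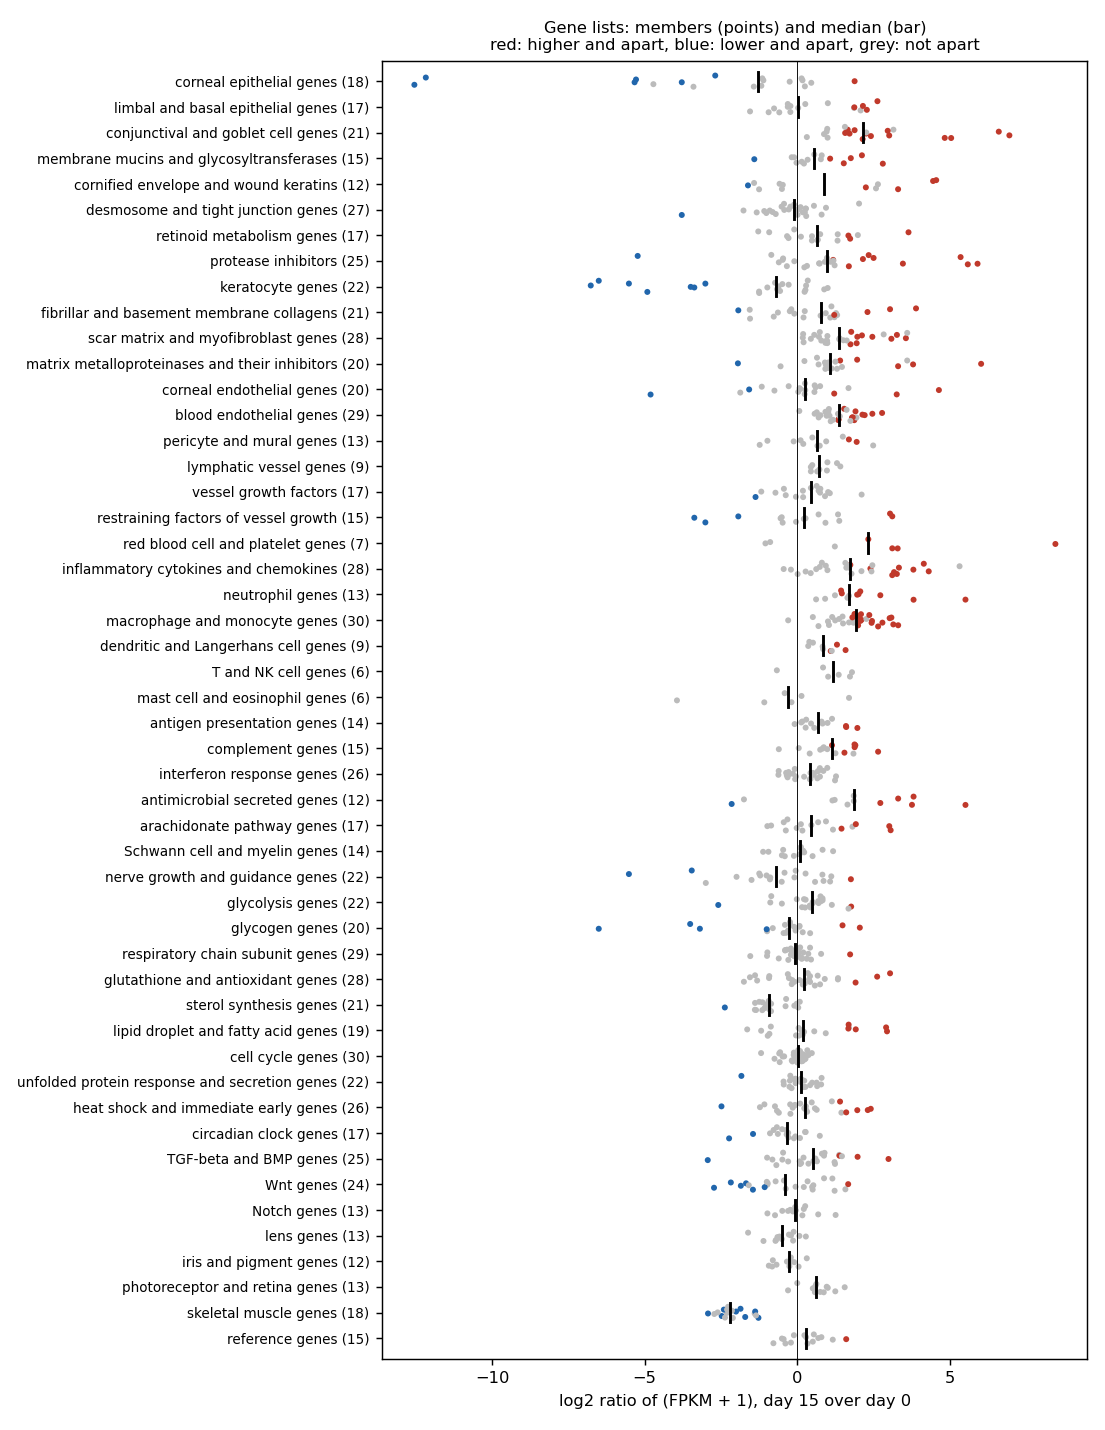
Log2 ratio of (FPKM + 1), day 15 over day 0 (horizontal), for each tested member of the lists with at least 5 tested members, 1 row per list with the number of members in parentheses; a black bar is the list median. Red points are apart and higher, blue points apart and lower and grey points not apart; the median of skeletal muscle genes lies at -2.20 and that of conjunctival and goblet cell genes at 2.14, while the median of cell cycle genes lies at 0.02.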

How the data were processed

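The authors deposited a Cuffdiff table of FPKM, with 1 pooled value, interval and status per group. Per the submitters' processing notes, TopHat2 2.1.0, Bowtie2 2.2.6, Cufflinks 2.2.1, Cuffdiff and the mm10 build were used. The level of the intervals and the strandedness are not given in the sources used here. FPKM carries no read totals, so depth and counting error are unknown. FPKM were compared on the log2 scale with a pseudocount of 1, by the rule for rows apart given in the text, which was tested on simulated data. Where a symbol had several rows, the row of highest mean FPKM was taken, or of highest day 0 FPKM for the microRNA loci. Rows that merge several symbols were left out of the lists. The values of some list members are not reported here. Loci wider than their RefSeq gene, or with exons of another GENCODE M21 gene on the other strand, are uncertain. Named genes were the 30 largest differences in each direction with FPKM of at least 10, up to 6 members apart per list, the 12 highest levels per group on loci of at least 300 bases, large differences not apart, the 5 rows on each side of the threshold, members of runs and 20 genes always given. The members and the 52 lists were chosen with earlier results of these data known. Alternatives varied the pseudocount, filter, fold, intervals, scaling and kinds of row. The scripts ran on Python 3.11.15 with pandas 2.3.3, numpy 2.4.6, matplotlib 3.10.9 and scipy 1.17.1.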

Additional observations from a re-analysis of the deposited data

Results flagged for a closer look

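Rows without a gene symbol enter none of the comparisons above. Of 1949 such rows that reached an FPKM of 1, 11 were apart and higher at day 15, which is 0.564% of them, and 38 were apart and lower, which is 1.95%. They are given here because they lie outside the named rows and some differ from uninjured cornea by the same rule. What they are was not tested.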

How the results depend on the processing

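No paired analysis was possible because the table holds 1 pooled column per group, and the alternatives that leave out a replicate or use a replicate block were not run for the same reason. Of 431 rows apart and higher and 237 apart and lower, a pseudocount of 10 left 222 and 127, a log2 ratio of at least 2 left 226 and 130, and leaving the intervals unused gave 1102 and 911, which moved the share of higher rows from 64.5% to 54.7%. The counts stayed within 1.5 times under a pseudocount of 0.1 (437 and 241), a minimum FPKM of 5 (354 and 192), no minimum (431 and 237), median scaling (467 and 221), upper quartile scaling (445 and 230), and without merged rows (423 and 233) or loci under 300 bases (431 and 237). Leaving out loci over 5 times their annotated span, an alternative chosen after the data were seen, gave 417 and 224. Among 235 named genes the call was lost for 61 with a pseudocount of 10, 68 with a log2 ratio of at least 2, 20 with a minimum FPKM of 5 and 3 under either scaling, and no gene changed direction in call under any of these alternatives. The list medians moved by more than 0.5 in 16 of 52 lists with a pseudocount of 10, 8 with 0.1, 8 with a minimum FPKM of 5 and 7 with no minimum, and in 0 under each of the other alternatives. With a pseudocount of 10 the median was -0.89 for skeletal muscle and -1.26 for corneal epithelium, so their order was the other way round. The lists farthest above 0 moved too. Their medians were then 0.96 for red blood cells and platelets, 0.77 for conjunctiva and goblet cells and 0.96 for macrophages. With no minimum FPKM the median for red blood cells and platelets was 0.73, so the ranking of lists depends on these settings. The pooled values hide the spread between samples, and the width of the authors' intervals sets what can be called apart.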
